A study of Mus musculus with 2 samples.

Results

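Genes that build and run cilia were followed across sorted cells of the mouse otocyst, the epithelial vesicle that gives rise to the inner ear. The set holds 47 genes listed by name and function: subunits of intraflagellar transport, its motors, Bardet-Biedl syndrome proteins, small GTPases, transition zone and basal body proteins, polycystins, RFX transcription factors and proteins of motile cilia. A gene was taken as measured when at least 1 probe set of the array named that gene and no other. This gave 43 of the 47 genes, out of 18194 genes on the array. For Arl6, Arl13b, Rpgrip1l and Pkd2 no signal is given, and only their promoters were examined.

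Otocysts of E10.5 embryos heterozygous for the transgene Tg(ETAR-EGFP)14Imeg were dissociated with trypsin and sorted by flow cytometry, so cells of both groups share genotype, age and handling and differ in EGFP fluorescence. Per the labels, EGFP lies mainly in the ventral and dorsomedial otocyst and is missing from the dorsolateral part. Each group is 1 Affymetrix array made from 1 µg of total RNA, and the sources used here do not give the number of embryos behind it. With 1 array per group there is no replicate error, no test was possible, and every difference below describes these 2 arrays alone.

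The primary cilium is a single, immotile projection on most embryonic cells, built from a basal body and sorted at its base by the transition zone. Intraflagellar transport (IFT) carries cargo along it: the IFT-B complex with kinesin-2 moves cargo towards the tip, and the IFT-A complex with dynein-2 returns it. The BBSome, a complex of Bardet-Biedl proteins, moves membrane proteins out of the cilium. Vertebrate hedgehog signalling depends on the primary cilium. In the ear, hair cells carry a modified primary cilium, the kinocilium, and mutations of several of these genes disturb hearing or hair bundle orientation. RFX factors bind a sequence called the X-box in promoters of ciliary genes.

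Values are MAS5 signals on a linear scale. Signals of different probe sets are not comparable, so each gene is compared only with itself across the arrays. Sums over marker lists are given to describe the arrays, and bright probe sets weigh most in them. A floor was set at the 40th percentile of each array, 10.4 for EGFP-positive and 12.4 for EGFP-negative cells, and signals below it were raised to it before the log2 ratio of EGFP-positive over EGFP-negative was taken. Where 1 signal lies at the floor, the ratio is a lower bound on the size. Bacterial poly-A control probe sets, all of them low here, reached 12.3 and 9.0, so the EGFP-positive floor lies just below the brightest of them. The trimmed means of both arrays were equal. The precision is limited by the number of arrays. A partial measure of error is the disagreement between probe sets of 1 gene, whose log2 ratios had an SD of 0.41 for genes with a mean signal under 50, 0.33 between 50 and 200, and 0.25 above 200. The mean was over a gene's probe sets above the floor in both arrays. Each gene below is set beside the SD for its brightest probe set. Where its other probe sets are dimmer, the SD quoted can be too small. The SD leaves out variation between embryos, sorts and hybridisations.

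Promoters of the genes were searched for the X-box, the inverted repeat bound by RFX factors, in RefSeq windows of the mouse build GRCm38.p6 that run from before each gene's start to shortly after it. Windows were found for 43 of the 47 genes. The X-box arm GTTGCC, on either strand, was present in 18 of them, 41.9%, against 14.8% of 10770 genes above the floor on these arrays and 14.1% of 27025 genes with a window. In the further list it was present in 41 of 105 genes, 39.0%. A longer form, GTTNC followed by 6 free bases and then AAC, was found for Ift140, Bbs7 and Mks1, which is 6.98%, against 3.23% of all genes. The strict palindrome, GTTNCC followed by 2 free bases and then GGNAAC, was found for Bbs7 and Mks1, which is 4.65%, against 0.529% of all genes. Both longer forms can hold the arm, so the searches overlap.

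Matches that lie before the start are shown for 6 genes, to let the letters be compared across the roles. Each line gives 60 bases, 5′ to 3′ on the gene's strand, with the match in capitals. Mks1 and Bbs7 hold the strict palindrome. Ift140 holds the longer form on the opposite strand, so its capitals show the reverse complement, and the capitals GGCAAC in Tekt1 are likewise the arm on the opposite strand. Ift57, Kif3a and Tekt1 hold the arm, at 2 places each in Ift57 and Tekt1. The windows are chr11:87853155-87853214 (plus strand) for Mks1, chr3:36613474-36613533 (minus strand) for Bbs7, chr17:25015946-25016005 (plus) for Ift140, chr16:49699184-49699243 (plus) for Ift57, chr11:53567248-53567307 (plus) for Kif3a and chr11:72361883-72361942 (minus) for Tekt1.
Mks1: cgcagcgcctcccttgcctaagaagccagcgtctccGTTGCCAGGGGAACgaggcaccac
Bbs7: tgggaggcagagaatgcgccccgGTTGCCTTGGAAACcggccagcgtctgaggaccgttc
Ift140: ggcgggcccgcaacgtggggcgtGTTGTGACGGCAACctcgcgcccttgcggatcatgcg
Ift57: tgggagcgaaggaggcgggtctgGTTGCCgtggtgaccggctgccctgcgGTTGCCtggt
Kif3a: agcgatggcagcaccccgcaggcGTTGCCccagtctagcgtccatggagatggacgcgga
Tekt1: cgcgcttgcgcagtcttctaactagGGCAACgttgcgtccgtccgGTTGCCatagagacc

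Most genes of the primary cilium lay above the floor in both arrays. Of the 43 measured genes, 36 lay above the floor in both arrays, 3 in 1 array, and 4 in neither. Among all 18194 genes on the array, 11682 lay above it in both arrays, and 73.4% did in at least 1. Of the 39 genes above the floor, 4 differed by 2-fold or more. Bbs2 and Bbs10 were higher in EGFP-positive cells, where 2.9% of all 13363 genes above the floor passed the same limit, and Pkd1 and Rfx4 were higher in EGFP-negative cells, where 7.63% did. The other 35, or 89.7%, lay within 2-fold, as did 89.5% of all genes above the floor, so the share of cilia genes past 2-fold is near that of the whole array. Fewer cells of a type and less RNA per cell cannot be told apart in such bulk samples.

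**Figure D1:**
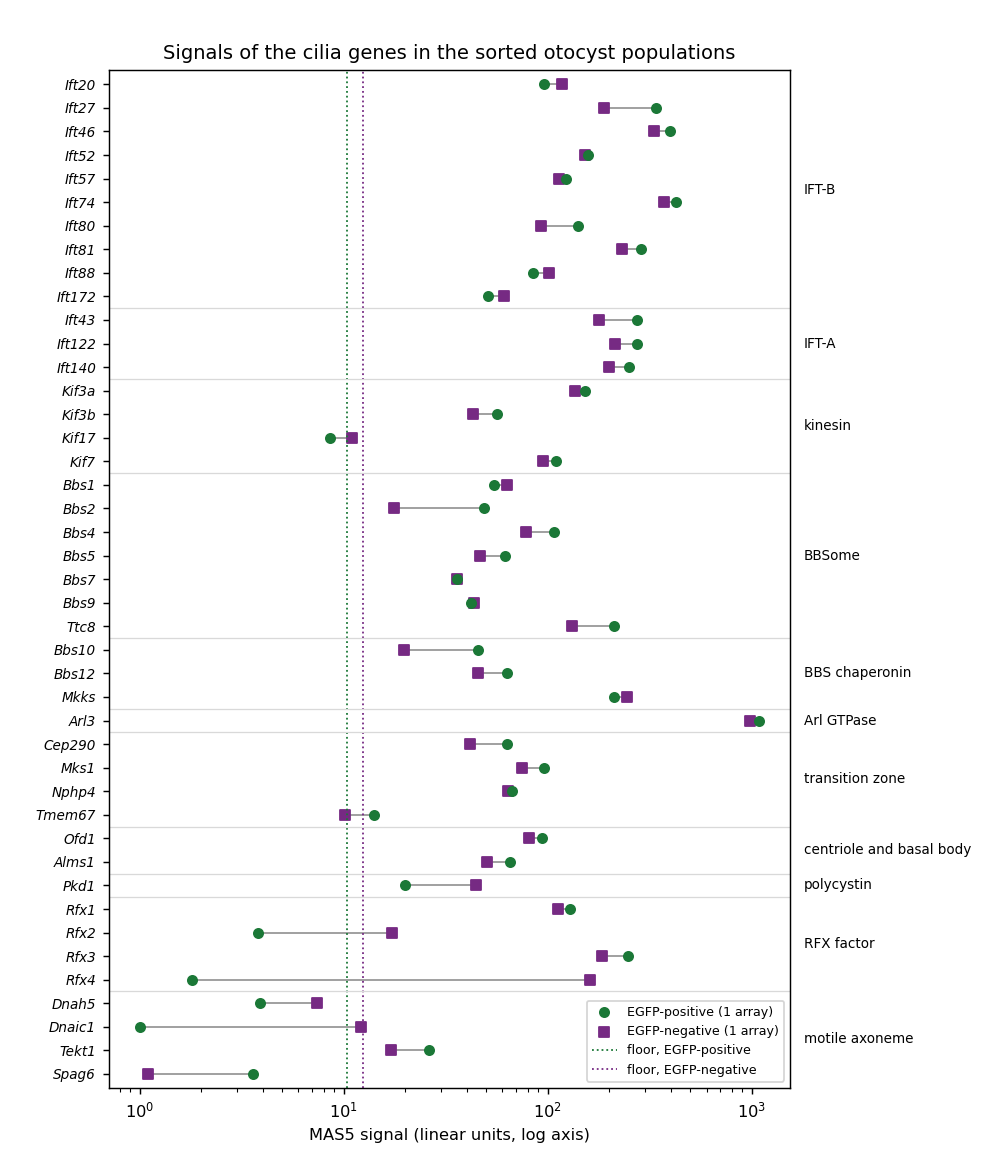
MAS5 signals (log axis) of the 43 measured cilia genes, grouped by role, with circles for the EGFP-positive and squares for the EGFP-negative array (1 array each, no error bars) and dotted lines for the floors. Most pairs lie close together above the floors, Rfx4 is far apart at 1.8 against 160.6, and 3 of the 4 genes of motile cilia lie at or below the floors.

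Within the 2-fold range the ratios leaned to one side. The median log2 ratio of the 39 genes was 0.21, against 0.0032 over all genes, and 29 of the 39, or 74.4%, had a ratio above 0, against 50.2% of all genes. The quartiles of the cilia genes were 0.02 and 0.44, and those of all genes were -0.30 and 0.23. Taken singly, 18 of the 39 ratios were smaller than the probe set SD for the signal range of their brightest probe set, and 7 were more than 2 times it. The same counts were not made over all genes, so no share of the array stands beside them. Centring the arrays otherwise subtracts 1 constant from every ratio, so it moves both medians and leaves the distance between them at 0.21. With the arrays centred on spiked hybridisation controls the median became -0.04 and 19 of the 39 ratios, 48.7%, were above 0, beside a median of -0.24 and 23.1% for all genes. Centred on a list of epithelial genes, the median became -1.21 and that of all genes -1.42.

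**Figure D2:**
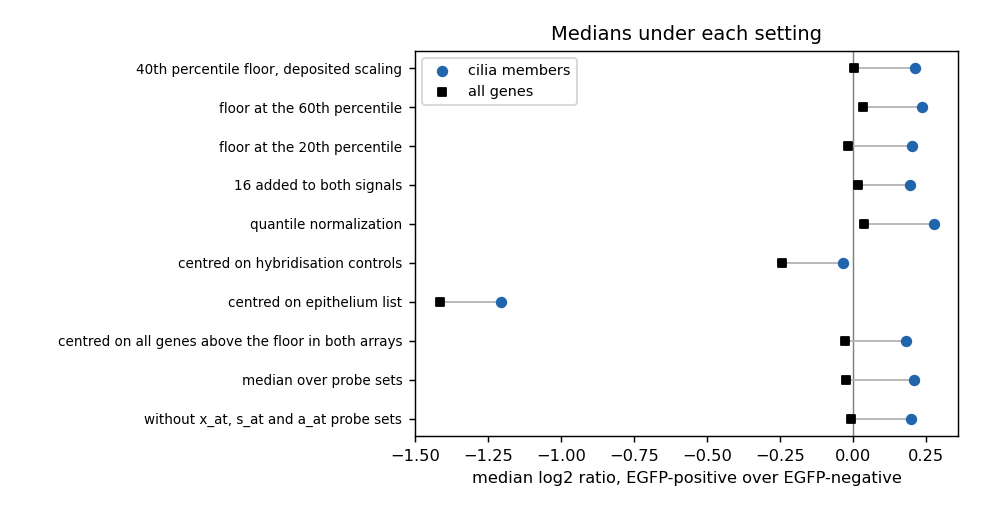
Median log2 ratio of the cilia genes (circles) and of all genes above the floor (squares) under each processing setting; each row is 1 setting. The sign of both medians moves with the centring of the arrays, whereas the cilia genes lie above all genes in every row, by 0.21 with the scaling as deposited.

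IFT-B, the complex of anterograde transport, was measured through 10 subunits, all above the floor in both arrays and all within 2-fold. Their log2 ratios ran from -0.29 to 0.85 with a median of 0.16, and 7 were above 0. Ift27, a small GTPase of the complex, had the largest difference, 340.2 in EGFP-positive against 188.7 in EGFP-negative cells, 1.80-fold. Its 3 probe sets went the same way, from 0.26 to 0.85, and the brightest is of a type that can bind related transcripts. Without probe sets of that kind the log2 ratio of Ift27 was 0.26.

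Ift80, which is mutated in a skeletal ciliopathy, had signals of 140.7 and 92.9, 1.51-fold higher in EGFP-positive cells, and a second probe set gave a log2 ratio of 0.28. Ift81, which binds tubulin together with Ift74, had 286.5 and 230.9. Ift74 itself had 422.9 and 370.8. Differences of this size, log2 ratios of 0.31 and 0.19, are near the probe set SD of 0.25 for the signals of their brightest probe sets. Ift81 has a dimmer second probe set, at 136.7 and 102.4, so a larger SD may apply to it. Ift46, a core subunit that links to outer dynein arms, had 397.8 and 331.6, Ift52, a core scaffold subunit, had 157.8 and 153.1, and Ift57, which joins the peripheral subcomplex, had 122.9 and 113.0.

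Another 3 IFT-B subunits had higher signals in EGFP-negative cells. Ift20, the subunit that is also found at the Golgi, had 95.5 against 117.1. Ift88, the polaris protein whose loss removes cilia, had 84.5 and 101.4. Ift172, the large peripheral subunit at the tip turnaround, had 50.8 and 60.9. The 3 log2 ratios lay between -0.29 and -0.26, within the SD of 0.33, and each rests on 1 probe set.

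IFT-A, the complex of retrograde transport, had 3 measured subunits, and all 3 had higher signals in EGFP-positive cells, with log2 ratios of 0.33 to 0.61. Ift43 had 273.1 against 178.4, 1.53-fold, which is more than 2 times the SD for its signal range. Ift122, a core subunit that also acts in hedgehog signalling, had 275.3 against 213.6, and the other probe set gave 0.21. Ift140, another core subunit, had 250.9 against 199.7. Their order relative to IFT-B could not be tested with 1 array a group.

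Kinesin genes differed little. Kif3a and Kif3b, the motor subunits of heterotrimeric kinesin-2, had signals of 152.4 against 135.6 and 56.2 against 43.2. The 4 probe sets of Kif3a spanned log2 ratios from -0.0045 to 0.36 and those of Kif3b from -0.20 to 0.38, so neither gene showed a direction shared by all its probe sets. Kif17, a homodimeric motor of sensory cilia, was below the floor in both arrays, at 8.6 and 11, on its brightest of 3 probe sets. Kif7, which organises the ciliary tip and regulates Gli proteins, had 109.5 against 95.1. Of 11 hedgehog pathway genes above the floor, 6 had ratios above 0 and 5 below, with a median of 0.20. The target Gli1 was more than 2-fold higher in EGFP-positive cells, at 81.5 against 32.7. The ligand Shh, at 19.2 against 55.5, and the co-receptor Boc, at 34.3 against 84.7, were more than 2-fold higher in EGFP-negative cells.

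BBSome subunits, which assemble the coat that carries membrane cargo, were 7 of 7 above the floor in both arrays. Bbs2 differed most, with a signal of 48.6 in EGFP-positive against 17.7 in EGFP-negative cells, 2.75-fold higher. It rests on 1 probe set near the floor, where the SD was 0.41. Its log2 ratio of 1.46 became 0.37, within 2-fold, under a floor set at the 60th percentile, and with 16 added to both signals it was 0.94.

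Ttc8, also known as Bbs8, had 211.0 against 131.5, 1.60-fold. Bbs4, a subunit that recruits the centriolar satellite protein Pcm1, had 107.1 against 78.2, but its 4 probe sets disagreed, with log2 ratios from -0.70 to 0.45. Bbs5, which binds phosphoinositides, had 61.8 against 46.4. The remaining subunits were level. Bbs7 had 36.0 in both arrays, Bbs9 had 42.3 against 43.5, and Bbs1, the subunit that binds the GTPase at the membrane, had 54.5 against 62.9.

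Chaperonin-like Bardet-Biedl proteins, which fold and assemble the BBSome, diverged. Bbs10 had 45.6 in EGFP-positive against 19.8 in EGFP-negative cells, 2.30-fold higher, and the other probe set, at 37.4 against 27.1, gave a log2 ratio of 0.46. The log2 ratio of the brighter probe set was 1.20, and it became 0.28 under the 60th percentile floor, 0.78 with 16 added to both signals and 0.96 when centred on hybridisation controls. The median of both probe sets was 0.83, so whether Bbs10 passes 2-fold depends on which probe set stands for it. Bbs12 had 63.5 against 45.3. Mkks had 211.5 against 243.9, with its probe sets on either side of 0, at -0.21 and 0.20. Markers of epithelium moved in the direction of Bbs2 and Bbs10: 18 of 19 measured genes were 2-fold or more higher in EGFP-positive cells, with a summed signal of 13284 against 4878 and none at the floor. Their part in these 2 ratios was not tested.

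Arl3, the small GTPase that releases lipidated cargo inside the cilium, was the only measured gene of its group, with signals of 1090.1 and 985.3. All 4 measured genes of the transition zone, the gate at the ciliary base, had ratios above 0 and none reached 2-fold. Cep290, which links membrane to microtubules there, had 63.5 against 41.8, 1.52-fold. Mks1, of the Meckel syndrome complex, had 96.0 against 75.2, and Nphp4, of the nephronophthisis complex, had 66.7 against 63.6. Tmem67, the membrane receptor meckelin, barely passed the floor in EGFP-positive cells, 14.0 against 10.2. Ofd1, which controls centriole length, had 94.1 against 81.2. Alms1, a protein of centrosomes and basal bodies, had 65.1 against 50.5.

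Pkd1, which encodes polycystin-1, a large receptor-like protein of cilia and cell junctions, had 19.9 in EGFP-positive against 44.6 in EGFP-negative cells, 2.24-fold higher in the latter. It rests on 1 probe set at low signal. Its log2 ratio of -1.16 became -0.42 under the 60th percentile floor, -0.76 with 16 added to both signals and -0.98 after quantile normalization, each within 2-fold. Most mesenchymal markers moved the same way, with 15 of 18 genes above the floor 2-fold or more higher in EGFP-negative cells. Their summed signal was 2640 against 11241. Of the 18 ratios, 2 were above 0, and 1 gene, Col6a1, was 2.53-fold higher in EGFP-positive cells, at 360.7 against 142.8. Of the 19 measured mesenchymal genes, 3 lay at the floor among EGFP-positive and 1 among EGFP-negative cells. Whether mesenchymal RNA has a part in the Pkd1 signal was not tested.

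**Figure D3:**
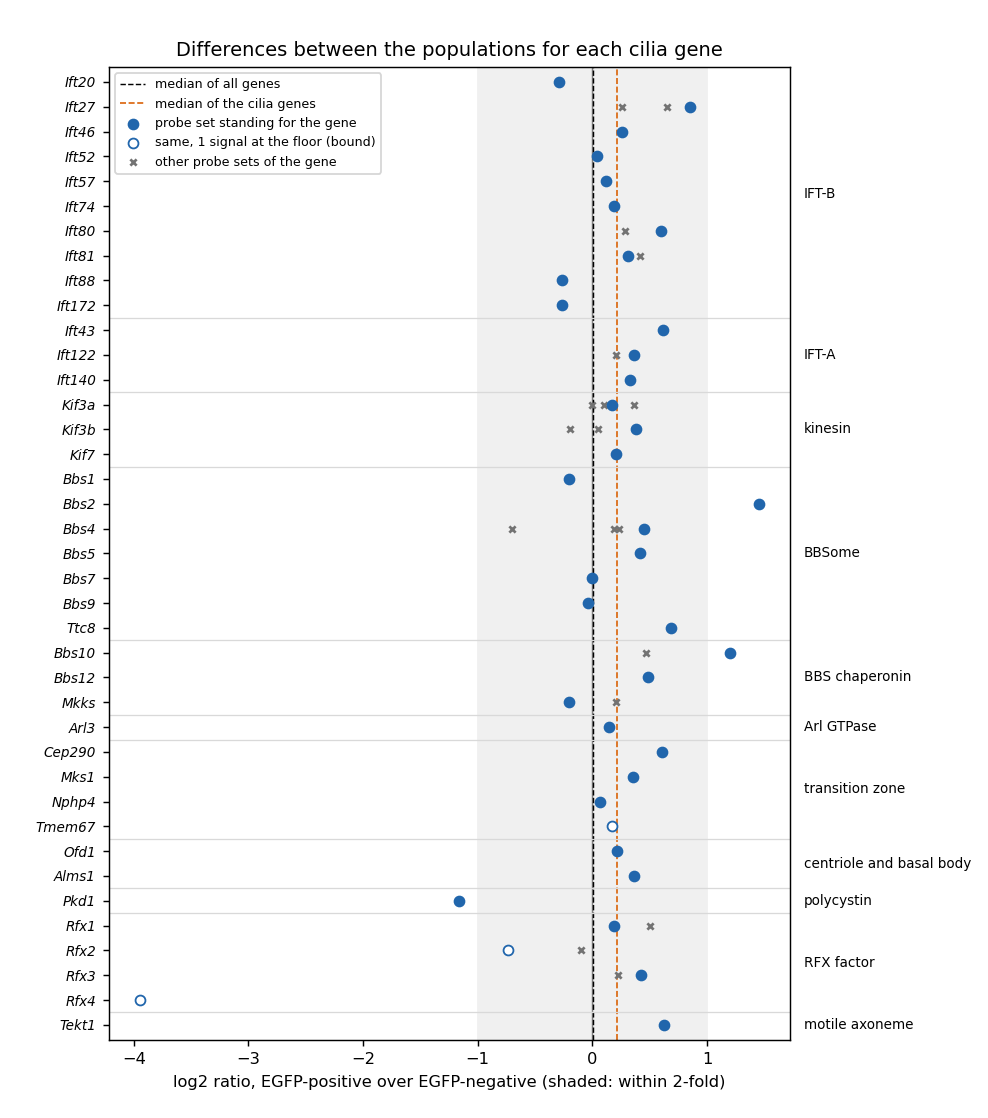
log2 ratio of EGFP-positive over EGFP-negative for the 39 cilia genes above the floor, with filled circles for the probe set standing for the gene, open circles where 1 signal is at the floor, crosses for other probe sets, and dashed lines for the medians of these genes (0.21) and of all genes (0.0032). Bbs2 and Bbs10 lie right of the shaded 2-fold band and Pkd1 and Rfx4 left of it, with Rfx4 at -3.95.

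RFX transcription factors, which switch on ciliary genes, split by member. Rfx4 had a signal of 1.8 in the EGFP-positive array against 160.6 in EGFP-negative cells, at least 15.4-fold higher in the latter when taken against the floor, and at least 13.1-fold when taken against the brightest poly-A control. Its second probe set was below the floor in both arrays, at 1.7 and 2.2. Rfx4 is known for its role in the developing brain and neural tube. The 2-fold difference of Rfx4 held in the same direction under each of the 9 other settings, with log2 ratios from -5.52 to -2.27.

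Hindbrain markers were examined beside Rfx4. Of 18 above the floor, 12 were 2-fold or more higher in EGFP-negative cells and 3 in EGFP-positive cells, with a median of -2.19. Of the 20 measured, 14 lay at the floor among EGFP-positive and 2 among EGFP-negative cells. The summed signal was 2544 against 3540. Irx3, at 1700.5 against 372.4, and Irx5, at 448.2 against 162.4, Iroquois genes that also act outside the brain, are among the 3 that were higher in EGFP-positive cells. Neural progenitor genes that moved with Rfx4 include Olig3, at 0.5 against 120.8, and Sox1, at 0.2 against 58.1. The share of Rfx4 signal that comes from neural cells was not tested.

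Rfx3, a regulator of ciliogenesis in nodal and other cilia, had 248.2 in EGFP-positive against 184.6 in EGFP-negative cells, a log2 ratio of 0.43, and its second probe set was at 0.22. Rfx1, a broadly expressed member, had 128.5 against 112.6. Rfx2, which is known for multiciliated and germ cells, had 3.8 against 17.3 on its brightest probe set, at least 1.66-fold lower in EGFP-positive cells when taken against the floor and at least 1.41-fold against the brightest poly-A control. A further probe set of Rfx2 had 11.6 against 7.8, the opposite order, and both lie near the floor. RFX factors with signals well above the floor in both populations were thus Rfx1 and Rfx3.

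Genes of motile axonemes were mostly below the floor. Dnah5, an outer dynein arm heavy chain, had 3.9 against 7.4. Dnaic1, an intermediate chain of the same arm, had 1.0 and 12.2, the latter just under the floor of 12.4. Spag6, of the central pair apparatus, had 3.6 and 1.1. Tekt1, a tektin filament protein, passed the floor in both arrays with 26.2 and 17.0, a log2 ratio of 0.62 at a signal where the SD was 0.41. A signal below the floor gives an upper limit on detection by that probe set and does not show that the transcript is absent.

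A further list of 121 cilia genes outside the set, of which 114 had a probe set, showed the same arrangement. All 82 measured genes of IFT, dynein-2, transition zone, basal body and membrane traffic lay above the floor in both arrays, and 81 were within 2-fold. Of all 18194 genes on the array, 11682 lay above the floor in both. In the motile list, 19 of 32 measured genes lay at or below the floor in both arrays, among them Dnaaf1, Hydin and Tekt2, whereas 73.4% of all genes on the array lay above it in at least 1. Foxj1, the transcription factor of motile cilia, had 5.8 and 12.9, just over the floor in EGFP-negative cells alone. Of the 95 genes of the further list above the floor, 1 was 2-fold or more higher in EGFP-positive cells, beside 2.9% of all genes, and 1 in EGFP-negative cells, beside 7.63%. The former was Rsph9, a radial spoke protein, at 31.2 against 3.5, at least 2.52-fold. The latter was Mchr1, a receptor found on neuronal cilia, at 27.5 against 56.4, whose probe sets ranged from -1.04 to -0.48.

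The median log2 ratio of the further list was 0.16, and 68 of the 95 ratios, 71.6%, were above 0. Without its motile genes the median was 0.15 and 69.5% of ratios were above 0. Ccno, at 12.2 against 7.6, counts below 0 only because its EGFP-positive signal lies under the EGFP-negative floor. By part, the median was 0.29 for the 13 motile genes above the floor, of which only 7 lay above it in both arrays. Of the 32 motile genes measured, 20 lay at the floor among EGFP-positive and 24 among EGFP-negative cells, so the filter bears on that median. The medians were 0.15 for further IFT and dynein-2 genes and 0.28 for the transition zone. They were 0.16 for the basal body and 0.11 for membrane traffic. Every measured gene of these other parts lay above the floor in both arrays. Among those nearest to 2-fold were B9d1, a transition zone protein, at 241.5 against 135.6, and Dync2h1, the heavy chain of the retrograde motor, at 157.3 against 89.7. Both were higher in EGFP-positive cells, by 1.78-fold and 1.75-fold.

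**Figure D4:**
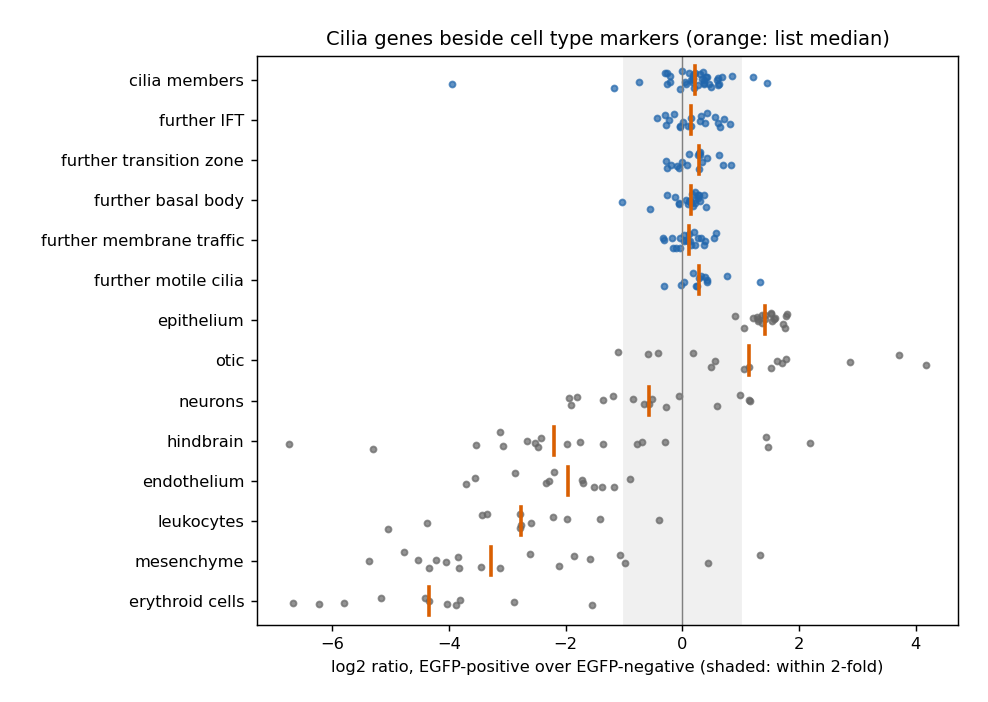
log2 ratios of single genes (points, scattered vertically for visibility) and list medians (orange bars) for the cilia genes, further cilia genes by part, and markers of epithelium, otic cells and other cell types. The cilia lists lie around 0 with medians from 0.11 to 0.29, epithelium lies at 1.42, and mesenchyme and erythroid cells lie at -3.29 and -4.34. The motile list, at 0.29, includes genes above the floor in 1 array only.

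Medians of the cell type marker lists lay farther from 0 than that of the cilia genes. Epithelial markers had a median log2 ratio of 1.42 and otic markers of 1.14, whereas markers of neurons, endothelium, leukocytes, mesenchyme and erythroid cells had medians of -0.58, -1.96, -2.77, -3.29 and -4.34. Of 15 otic genes, 9 were 2-fold or more higher in EGFP-positive cells and 1, Hmx2, in EGFP-negative cells. The neuron list was split. Of its 15 genes, 5 were 2-fold or more higher in EGFP-negative cells and 2, Pou4f1 and Neurog1, in EGFP-positive cells. The EGFP-negative array thus holds higher signals for most markers of endothelium, leukocytes, mesenchyme and erythroid cells, which the label of the sort, otocyst epithelium, does not name. All 11 measured erythroid genes and 11 of 12 leukocyte and 11 of 12 endothelial genes were 2-fold or more higher there. Of these lists, 7, 6 and 7 genes lay at the floor among EGFP-positive cells and none did among EGFP-negative cells. All 19 measured epithelial genes lay above the floor in both arrays. How these cells bear on the cilia genes was not tested.

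The X-box matches printed above were set beside the signals. They lie 24 to 11 bases before the start in Mks1, 121 to 108 in Bbs7 and 117 to 104 in Ift140. A match is a description of letters and not a bound site. The ratios of genes with and without the arm overlapped. The 15 genes with the arm that lay above the floor had a median log2 ratio of 0.17, ranging from -0.73 to 0.85, and 10 ratios were above 0. The 20 without it had a median of 0.24, ranging from -3.95 to 1.46, and 15 were above 0. Bbs2, Bbs10, Pkd1 and Rfx4, the 4 genes past 2-fold, had no match to any of the 3 forms in their windows, and Rfx1, Rfx2 and Rfx3 each held the arm.

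**Figure D5:**
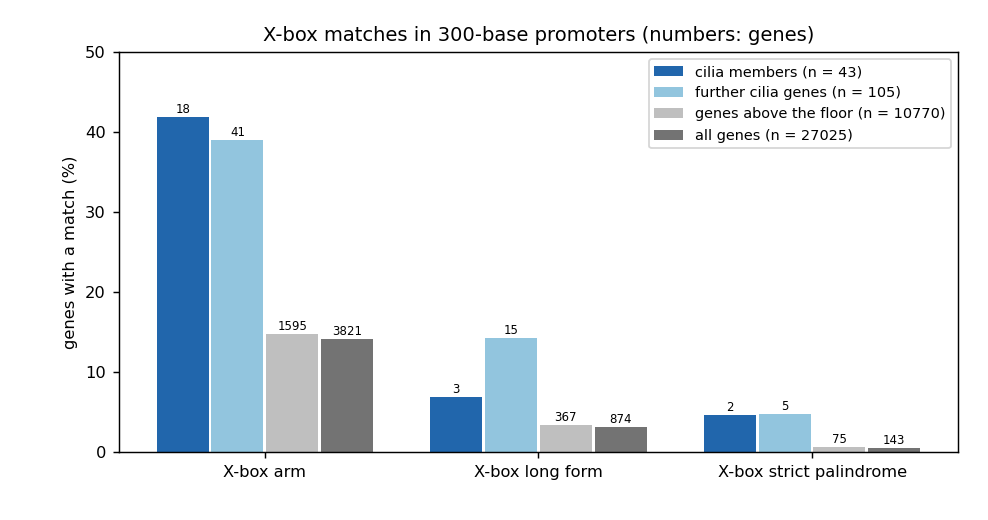
Share of genes (%) whose promoter window holds each X-box form, for the cilia genes, the further cilia genes, genes above the floor on these arrays and all genes with a window; numbers over bars are genes with a match. The arm is in 41.9% of cilia genes and 39.0% of further cilia genes, against 14.1% of all genes.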

How the data were processed

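One Affymetrix array per sorted population was compared. Per the submitters' processing notes, the authors used MAS5 version 5.0; the deposited values are intensities, 1 per probe set for 45101 probe sets, with the scaling target unstated. Of these, 34958 named 1 gene in the platform annotation (symbols updated through GRCm38.p6 RefSeq), 932 several and 9211 none. A gene's value came from the probe set brightest on average over both arrays, and signals were raised to the array's 40th percentile. No p-value, SD or SE between samples exists with 1 array per group. The limit of 2-fold is a description.

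The genes, roles, further lists and X-box forms were chosen with earlier results of these data known. Every measured member was named by rule, and further cilia genes if past 2-fold; B9d1, Dync2h1, Gli1, Shh, Boc, Foxj1 and the examples of motile genes and markers were chosen after their values were seen. Ratio recovery was tested on simulated data. Alternatives were other floors, an added constant, quantile normalization, 3 centrings, other probe sets and a 1.5-fold limit. Python 3.11.15, numpy 2.4.6, pandas 2.3.3 and matplotlib 3.10.9 were used.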

Additional observations from a re-analysis of the deposited data

How the results depend on the processing

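No paired analysis was possible because each group has 1 array, and for the same reason no array could be left out. Counts of 2 cilia genes higher in EGFP-positive cells and 2 in EGFP-negative cells became 0 and 1 with the floor at the 60th percentile. There 2.31% and 4.65% of all genes passed the limit. With 16 added to both signals the counts were also 0 and 1, beside 1.78% and 4.84%. With the floor at the 20th percentile, which added Dnaic1 and Rfx2, they were 2 and 4, beside 4.31% and 11.8%. They were 2 and 1 after quantile normalization, beside 3.76% and 6.15%. Centred on hybridisation controls they were 1 and 2, beside 1.68% and 10.8%. The median over probe sets also gave 1 and 2, beside 2.41% and 7.07%. So did leaving out probe sets that can bind several transcripts, beside 2.79% and 7.52%. Centred on the epithelial list they were 0 and 28, where 0.135% and 87% of all genes passed. At a 1.5-fold limit they were 8 and 3, where 7.84% and 14.5% did. For the further list, the counts of 1 and 1 became 0 and 0 with the 60th and 4 and 6 with the 20th percentile floor. They became 1 and 0 with the added constant and 0 and 80 with the epithelial centring. EGFP-negative counts were 0 after quantile normalization and with the median over probe sets, and the EGFP-positive count was 9 at 1.5-fold. The shares of all genes beside these counts are those given above for each setting. The median of the cilia genes stayed between -0.04 and 0.28 except for -1.21 with epithelial centring, where Bbs10 turned to -0.22 and Bbs2 was at 0.04. The centrings subtract a constant from every ratio, so the distance to the median of all genes stayed at 0.21. Low signals limit Bbs2, Bbs10, Pkd1 and Rfx2.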
